A study of Mus musculus with 8 samples.

Results

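Broad unmethylated valleys are stretches of several kilobases in which nearly every CpG lacks methylation. Here they were chosen by their measured level in muscle stem cells: 1-kb windows on chromosomes 1 to 19 with at least 4 CpG cytosine positions were averaged over both ages, and a valley was 5 or more consecutive windows each under 15%. The rule found 303 valleys among 25211 runs of 1 or more such windows (1.20%), against 24908 shorter runs of 1 to 4 windows. The levels chose the members, so the low levels, the lengths and the sharp edges at 15% are given as a description, with no test.

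Most CpGs of a mammalian genome are methylated, and short CpG islands at gene starts are the usual exception. Valleys extend this state far beyond one island. They are known from many tissues to lie over genes of developmental regulators, where Polycomb complexes often mark the histones of genes that the cell does not use, and a few lie over the regulators that the cell does use. In muscle stem cells the best known of the latter is Pax7, the transcription factor that defines these cells.

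The cells came from limb muscle of male C57BL/6 mice of 2 ages, 4 months (young, n = 4 mice) and 22 months (old, n = 4 mice). They were sorted as quiescent muscle stem cells, by the presence of VCAM and the lack of CD45, CD31 and Sca1, with no culture. Every animal gave its own whole-genome bisulfite library, but the deposited table holds 1 smoothed level per age at each position. The spread between mice is therefore not known, no test over mice could be made, and depth per position is unknown.

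Valleys took up 1.932 Mb, or 1932 of the 38389 windows under 15% (5.03%) and of 1858901 windows with enough positions (0.104%). They held 152683 of 32026463 positions (0.477%). Their CpG density was high, with a median of 79.9 positions per kb against 61 in the shorter runs and 13 in all windows. Each CpG counts as 2 positions where both strands are listed. The label held for most of the sequence, with exceptions: 709 valley positions (0.464%), in 102 valleys, had a mean level of both ages over 30%.

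The starts of 5 genes show the range of sequence that lies within these valleys. Each is the RefSeq promoter in GRCm38.p6, from 250 bases before to 50 after the start, read 5′ to 3′ on the gene's strand, with every CpG in capitals. Skor1 was chosen because it is the most CpG-dense of them, Myf5 because it is nearly free of CpGs, Spry1 and Pax7 because they are stem cell genes, and Mamstr because it lies in the valley with the largest difference towards old cells.

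Pax7 (chr4:139832919-139833218, minus strand): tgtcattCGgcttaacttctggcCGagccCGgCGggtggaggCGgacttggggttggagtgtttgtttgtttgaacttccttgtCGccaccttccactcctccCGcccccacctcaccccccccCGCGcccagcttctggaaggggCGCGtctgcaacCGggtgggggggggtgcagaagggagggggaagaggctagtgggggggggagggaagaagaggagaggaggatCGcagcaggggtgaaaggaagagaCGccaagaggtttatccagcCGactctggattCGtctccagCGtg
Spry1 (chr3:37639697-37639996, plus strand): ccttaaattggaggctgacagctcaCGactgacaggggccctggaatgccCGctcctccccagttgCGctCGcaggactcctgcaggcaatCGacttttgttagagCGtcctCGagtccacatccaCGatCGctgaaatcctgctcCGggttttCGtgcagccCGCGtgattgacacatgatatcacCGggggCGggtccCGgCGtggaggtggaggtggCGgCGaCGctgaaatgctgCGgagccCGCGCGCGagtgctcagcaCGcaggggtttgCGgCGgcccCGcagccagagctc
Skor1 (chr9:63148912-63149211, minus strand): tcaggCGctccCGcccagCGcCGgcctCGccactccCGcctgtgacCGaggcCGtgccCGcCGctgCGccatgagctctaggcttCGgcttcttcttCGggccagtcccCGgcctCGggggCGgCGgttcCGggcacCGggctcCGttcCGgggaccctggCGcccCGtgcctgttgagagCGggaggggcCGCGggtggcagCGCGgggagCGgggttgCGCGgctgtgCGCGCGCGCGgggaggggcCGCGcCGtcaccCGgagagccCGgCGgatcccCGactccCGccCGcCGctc
Myf5 (chr10:107486085-107486384, minus strand): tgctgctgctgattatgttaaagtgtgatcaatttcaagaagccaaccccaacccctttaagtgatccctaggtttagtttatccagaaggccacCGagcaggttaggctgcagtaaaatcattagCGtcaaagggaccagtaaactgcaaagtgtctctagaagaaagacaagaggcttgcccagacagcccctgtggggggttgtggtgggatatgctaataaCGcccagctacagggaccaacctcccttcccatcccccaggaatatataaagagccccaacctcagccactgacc
Mamstr (chr7:45639727-45640026, plus strand): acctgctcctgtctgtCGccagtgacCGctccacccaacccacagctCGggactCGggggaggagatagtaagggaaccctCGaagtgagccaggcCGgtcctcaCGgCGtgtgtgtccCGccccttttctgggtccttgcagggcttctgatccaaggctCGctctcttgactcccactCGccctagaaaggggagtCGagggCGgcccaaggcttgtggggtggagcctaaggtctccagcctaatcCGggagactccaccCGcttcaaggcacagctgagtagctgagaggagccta

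The Skor1 start held 46 CpGs, and its 92 positions ranged from 2.16% to 2.75% in young cells and from 2.20% to 2.76% in old cells. The Spry1 start held 29 CpGs at a mean of 2.09% in young cells and 2.23% in old cells. The Pax7 start held 17 CpGs at 3.42% in young cells and 3.11% in old cells. The Myf5 start held only 3 CpGs, at 10.3% in young cells and 11.5% in old cells. Mamstr, which encodes a coactivator of the MEF2 muscle transcription factors, had 15 CpGs at 6.76% in young cells and 12.5% in old cells, and the ranges of the ages did not overlap (6.35% to 7.64% against 10.4% to 13.5%). These positions are neighbours in smoothed data and are not replicates, and the smallest of the authors' p-values among them was 0.0907. Mamstr was chosen for the difference of its valley, so the separation of the ages at its start is a description. How often the ages separate at other starts was not counted.

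Over the 237 starts of the RefSeq promoter table that lay inside valleys, from 180 genes, the median promoter held 21 CpGs with a GC content of 63%. The 11450 starts in shorter runs had 23 CpGs and 63%, while 8375 starts in neither had 3 CpGs and 48.3%. The median promoter in a valley was thus no richer in CpGs than that in a shorter run. A search on both strands covered 4 motifs. GGGCGG, the core of a GC box, was in 67.1% of valley promoters, 70.0% of those in shorter runs and 47.0% of all promoters. CGCG was in 73.4%, 78.3% and 50.3% in the same order. TATAAA was in 9.28%, 5.81% and 12.7%, and the E-box CAGCTG, the form that muscle basic helix-loop-helix factors prefer, was in 11.8%, 14.6% and 15.6%. GGGCGG and CGCG can overlap each other. A match describes these letters and is not a binding site.

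Of 919 hairpins in the microRNA table used, 7 lay in 6 valleys, and their mature forms are shown because the host valleys differ in kind. Capitals mark the seed, bases 2 to 8, and all 13 mature sequences had different seeds. The sequences are RefSeq's.

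mmu-miR-9-5p: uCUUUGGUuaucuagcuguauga
mmu-miR-9-3p: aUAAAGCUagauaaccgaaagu
mmu-miR-196b-5p: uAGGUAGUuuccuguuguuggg
mmu-miR-129-5p: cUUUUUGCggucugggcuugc
mmu-miR-1247-5p: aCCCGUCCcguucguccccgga
mmu-miR-22-3p: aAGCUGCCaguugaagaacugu

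The Mir9-3 hairpin (chr7:79505264-79505353), whose product is abundant in neural progenitors, sat in a 12-kb valley with the end of its host transcript Mir9-3hg. Within 500 bp of it the level was 3.15% in young cells and 3.30% in old cells. Mir196b (chr6:52230081-52230165) lay in the valley of Hoxa9 and Hoxa10, at 3.71% in young cells and 4.24% in old cells. Mir129-2 and the overlapping Mir129b (chr2) stood at 3.33% and 3.31% in young cells and at 3.13% and 3.10% in old cells. Mir1247, in the 7-kb valley of Dio3, a thyroid hormone deiodinase from an imprinted cluster, was at 2.96% in young cells and 3.16% in old cells. Mir22 (chr11:75463716-75463810), a microRNA abundant in muscle, was the exception: the 12 positions around it were at 36.6% in young cells and 44.8% in old cells, at the edge of a 6-kb valley whose mean was 6.90% and 7.16%. Mir6935, in the valley of Actg1, was the last of the 7 hairpins shown.

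Valley length had a median of 6 kb and ranged from 5 to 18 kb. At the threshold of length, 147 valleys had exactly 5 windows and 479 runs outside the rule had exactly 4. Only 26 valleys reached 10 kb. The highest window inside a valley was at 14.997% and the lowest measured window beside one at 15.01%. Of 606 borders, 50 were set by a window with fewer than 4 positions and 556 by a window of 15% or more, which had a median of 33.2%. Only 173 borders met a window of 50% or more, and 134 met one from 15% to 20%, so many valleys thinned out into partly methylated sequence.

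**Figure D1:**
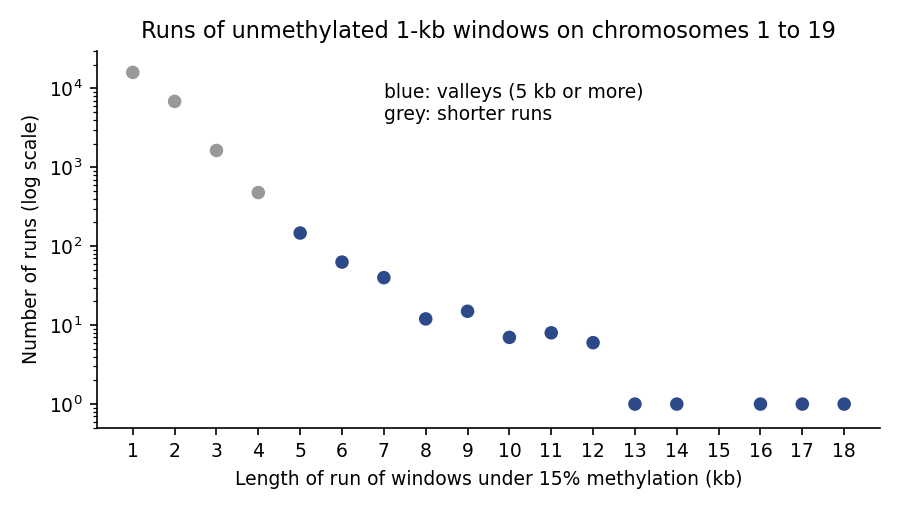
Number of runs of consecutive 1-kb windows under 15% methylation (vertical axis, log scale) against run length in kb (horizontal axis), over chromosomes 1 to 19. Blue points are the 303 valleys of 5 kb or more and grey points the 24908 shorter runs; no run had 15 windows.

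The longest valley, of 18 kb (chr15:85665001-85683000), held no gene end. Its nearest protein-coding gene was Ppara, a fatty acid receptor, 51.9 kb away, and its level was 4.35% in young cells and 4.14% in old cells over 951 positions. The valley of Lhx5, a LIM homeobox factor of the developing brain, followed with 17 kb (chr5:120424001-120441000) at 4.55% in young cells and 4.50% in old cells. No window of it exceeded 8.93% averaged over both ages.

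The Pax7 valley followed with 16 kb (chr4:139819001-139835000) and 1090 positions. It covered the start of Pax7 and the adjoining part of the gene, which spans 139737059 to 139833530 on the minus strand. Its level was 4.61% in young cells and 4.32% in old cells. The lowest window was at 2.37% in young cells and 2.38% in old cells, and the highest, at the edge deepest within the gene, at 14.6% in young cells and 11.7% in old cells. The window next to the other edge went the other way, with 9.50% in young cells and 11.6% in old cells. Of the 16 windows, 4 were higher in old cells and 12 lower, and none of the 1090 positions had an unadjusted p-value under 0.05 in the authors' table. Over all valleys only 198 of 152683 positions (0.130%) had one, so this does not set Pax7 apart.

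The remaining valleys of 12 kb or more lay mostly over genes of other lineages. Tbx5, a factor of the heart and forelimb, had a valley of 14 kb at 6.05% in young cells and 5.99% in old cells, and 2 further valleys followed within its gene. Neurod2, a neuronal basic helix-loop-helix factor, had 13 kb at 5.24% in young cells and 5.45% in old cells. At 12 kb, Skor1, a corepressor expressed in neurons, was at 4.59% and 4.89%, and Foxb1, a forkhead factor of the brain, at 6.98% and 7.04%, in young and old cells. Six3, a homeobox factor of the forebrain and eye, was at 6.88% and 6.92%. A valley across Rhof, a small GTPase, and Setd1b, a histone H3 lysine 4 methyltransferase, was at 6.19% in young cells and 5.70% in old cells. The valley 6.09 kb from Cbx8, a Polycomb subunit, was at 5.95% in young cells and 5.51% in old cells. The sign of the small differences at Tbx5, Six3 and the valley of Mir9-3hg turned under at least 1 other definition of a valley, as it did for Myf5 and Hes1.

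**Figure D2:**
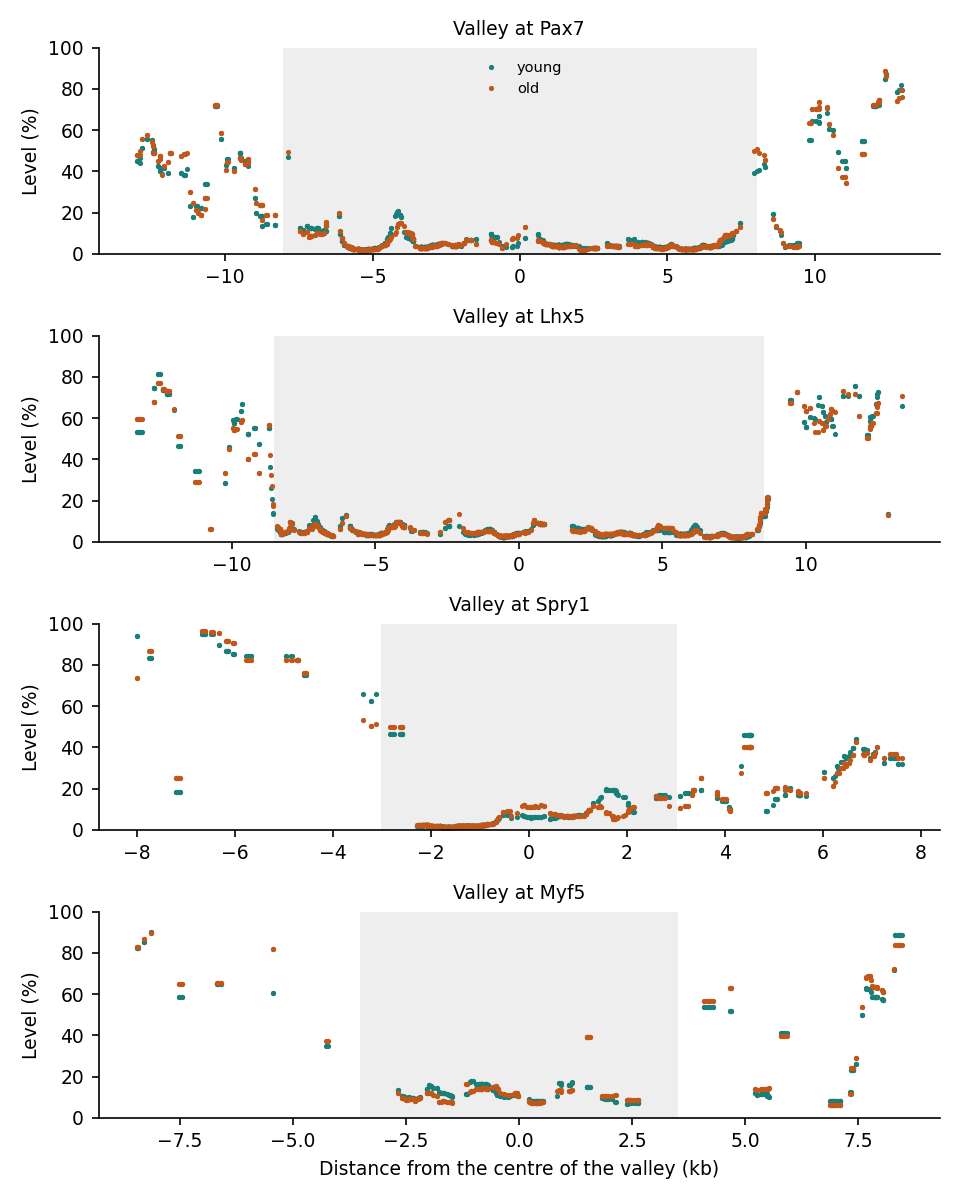
Methylation level in percent (vertical axes) at each CpG position in young and old cells against the distance in kb from the centre of the valley (horizontal axes), for the valleys at Pax7, Lhx5, Spry1 and Myf5. Grey marks the valley, and old points cover young ones where they coincide. Levels stay low across 16 kb at Pax7 and 17 kb at Lhx5, and the ages part over short stretches at Spry1 (18.9% against 6.48%) and Myf5 (14.98% against 39.38%).

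Gene ends, the first and last base of a gene in RefSeq, tied valleys to genes. A protein-coding gene had an end in 220 of 303 valleys, 272 overlapped such a gene and 38 held a whole one. Of the 31 that overlapped none, 15 held an end of a long non-coding RNA or microRNA. In all, 247 of 20661 protein-coding genes (1.20%) had an end in a valley.

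Among lineage transcription factors, from 16 families of developmental regulators, 70 of 334 genes had an end in a valley (21.0%), against 1.20% of all protein-coding genes. The share varied by family. The Irx genes, homeobox factors of patterning, had 3 of 6 (Irx4, Irx5 and Irx1). The Nkx genes had 5 of 14, led by Nkx2-1, the factor of lung and thyroid, with 11 kb. The Pax genes had 3 of 9 (Pax7, Pax5 and Pax6), and the POU genes 4 of 13. The Sox genes had 5 of 17 and the LIM homeobox genes 3 of 12. The Fox genes had 4 of 31 and the nuclear receptors 1 of 18, Nr4a3. Another 200 of the 334 factors had an end in a shorter run, against 11088 of 20661 protein-coding genes, a much smaller contrast than for valleys.

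Further factors of lineages other than muscle differed in whether they reached the length of a valley. Tal1 (3 kb), Spi1 (1 kb), Foxa1 (3 kb) and Pitx1 (2 kb) had only shorter runs. Runx1 had a valley of 5 kb, and Gata4 had a pair, the longer of 8 kb at 8.35% in young cells and 8.47% in old cells; all lay within the genes and away from their ends.

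The Hox clusters, whose genes set position along the body, were only partly valleys. In the Hoxa cluster 27 of 100 windows were under 15%, and 11 of them formed 1 valley (chr6:52224001-52235000) over Hoxa9 and Hoxa10 at 4.27% in young cells and 4.10% in old cells. The Hoxb cluster held 2 valleys of 11 kb in all, with ends of Hoxb7 and Hoxb8. The Hoxc cluster held 3 of 19 kb in all, at 6.74% in young cells and 6.84% in old cells, with the end of Hoxc10. The Hoxd cluster had 17 of 97 windows under 15% and no valley. Ends of 5 of the 39 Hox genes lay in valleys and 21 in shorter runs, against 247 and 11088 of 20661 protein-coding genes.

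Of 35 muscle regulators and muscle stem cell genes, 4 had an end in a valley: Pax7, Lbx1, Myf5 and Spry1. Lbx1, a homeobox factor of migrating muscle precursors, had 9 kb (chr19:45229001-45238000) at 5.94% in young cells and 5.49% in old cells. The direction at Lbx1 turned, to 0.346 points higher in old cells, at a threshold of 10% and with young levels alone, and to 0.278 with windows moved by 500 bp. Spry1, an inhibitor of receptor tyrosine kinase signalling that keeps these cells quiescent, had 6 kb (chr3:37639001-37645000) at 4.78% and 4.54%. The valley of Myf5, a muscle determination factor, had 7 kb (chr10:107483001-107490000) and stood apart by its higher level, 11.7% in young cells and 11.8% in old cells. Its length rested on the mean of both ages: old levels alone gave 5 kb (chr10:107483001-107488000) and young levels alone gave no valley there. A threshold of 10% or windows moved by 500 bp also left no valley at Myf5. Other genes of the list stayed below the length of a valley. Myod1, the other determination factor, had a run of 3 kb and Pax3 one of 1 kb. Vcam1, the surface protein used for the sort, had 2 kb.

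Notch signalling, which holds muscle stem cells in quiescence, had 5 of 24 genes in valleys, each of 5 kb: the receptors Notch1 and Notch3 and the target genes Hes1, Hes7 and Heyl. Hes1 was at 3.05% in young cells and 2.97% in old cells, with an SD of 0.151 points over the differences of its 5 windows, 4 of which were lower in old cells. Heyl was at 6.90% in young cells and 7.33% in old cells. Hey1, a further target, had only a run of 4 kb. Immediate early genes, which respond to stimuli within minutes and are induced by tissue dissociation, had 6 of 23 in valleys (Fosl2, Egr3, Jun, Junb, Myc and Ier2). Jun was at 3.08% in young cells and 2.74% in old cells.

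Markers of other cells that a sort might carry had an end in a valley in 1 of 10 endothelial genes, 1 of 9 blood genes and 2 of 10 fibro-adipogenic genes. Sox17, an endothelial factor, was at 4.65% in young cells and 4.33% in old cells, Pax5, a B cell factor, at 7.12% and 7.56%, and Tcf21, a fibroblast factor, at 8.79% and 9.50%. Pdgfra, a receptor of fibro-adipogenic progenitors, was at 5.50% and 5.36%. Whether other cells contributed to these levels was not tested. Neither CDK inhibitors (0 of 7), including Cdkn2a with 3 kb, nor DNA methylation enzymes (0 of 13), muscle fibre genes (0 of 10) or housekeeping genes (0 of 32) had an end in a valley, although 29 of the 32 housekeeping genes had one in a shorter run.

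**Figure D3:**
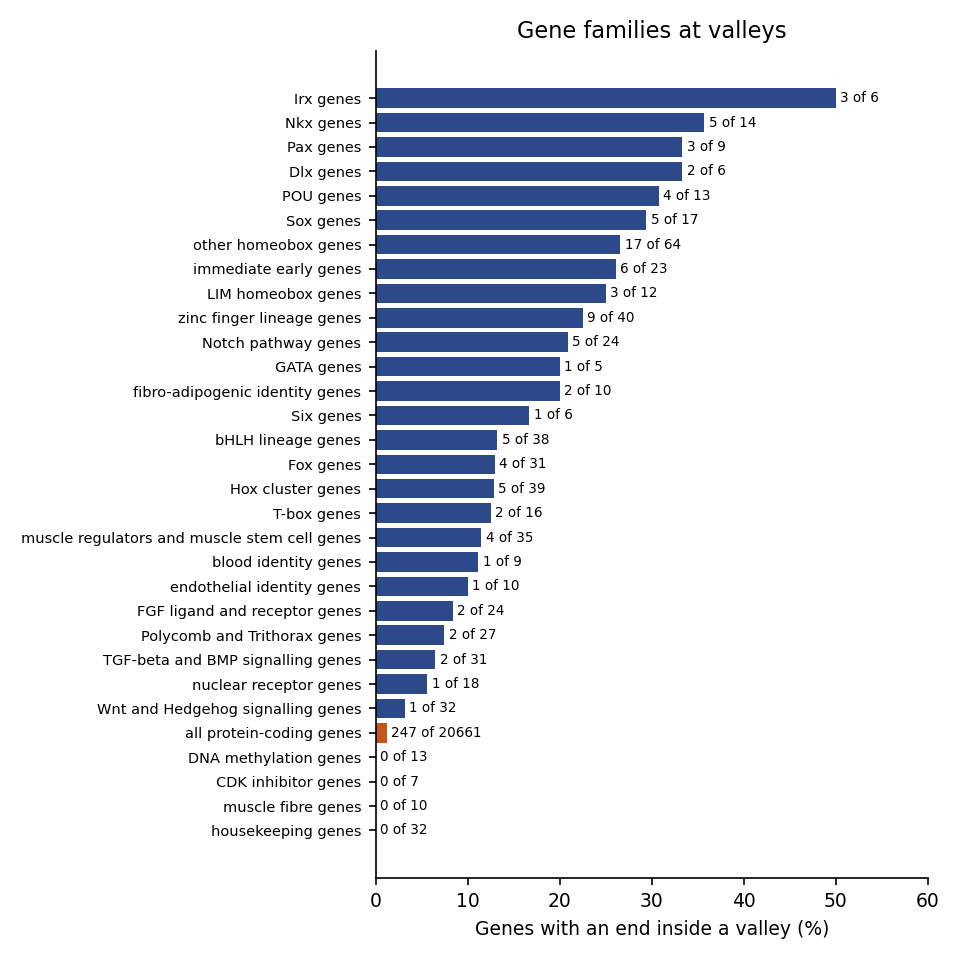
Share of genes in percent (horizontal axis) with an end inside a valley, for each gene list, with the number of genes beside each bar; the orange bar is all protein-coding genes (247 of 20661). Irx, Nkx, Pax and Dlx genes are at the top, and housekeeping genes, 0 of 32, at the bottom.

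Valleys also came in groups. Within 50 kb of each other lay 58 valleys in 26 groups, 5 of them of 3 or more valleys. Tfap2a, a factor of neural crest, lay in a group of 4 valleys with 23 kb in all, at 6.81% in young cells and 6.77% in old cells. The 3 valleys at Tbx5 took 28 kb of a span of 52 kb, and the 3 at Dlx5 and Dlx6, homeobox factors of limb and jaw, 16 kb of 24 kb.

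The ages differed little inside valleys. Over all valley positions the level was 5.17% in young cells and 5.10% in old cells, a difference of -0.0665 points (old minus young). The median valley differed by -0.0899 points with an SD over valleys of 0.404, 123 valleys were higher in old cells and 180 lower, and 296 (97.7%) differed by less than 1 point. Valleys were lower in old cells on 15 of 19 chromosomes. The chromosomes ranged from -0.249 to 0.0584 points, with an SD of 0.0875, which describes these 2 sets of levels and is not an error over mice.

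The direction was that of unmethylated sequence in general and opposite to that of the whole genome. Shorter runs were at 5.24% in young cells and 5.14% in old cells, with 40.5% of runs higher in old cells against 40.6% of valleys. All positions under 15% differed by -0.111 points. All positions of chromosomes 1 to 19 were at 64.0% in young cells and 64.5% in old cells, a difference of 0.470 points. Windows matched on level were close in some bands and apart in others. Of windows under 3%, 29.6% in valleys and 31.4% in shorter runs were higher in old cells, and from 3% to 5%, 40.2% and 38.5%. The shares were 46.2% and 41.5% from 5% to 7%, and 49.5% and 43.7% from 7% to 10%. In this last band the differences were -0.0265 points in valleys and -0.136 in shorter runs. From 10% to 15% the shares were 46.25% and 45.9%. No difference between valleys and shorter runs could be tested over mice.

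Valleys divided by the kind of gene at them. The 69 valleys with an end of a lineage transcription factor were at 5.69% in young cells and 5.74% in old cells, 44 were higher in old cells and 25 lower, and their median difference was 0.0429 points. The 151 valleys with ends of other protein-coding genes were at 4.68% in young cells and 4.57% in old cells, 45 were higher and 106 lower, and the median was -0.115 points. The 83 valleys without such an end had a median of -0.156 points, with 34 higher. Valleys of lineage factors also had a higher level than those of other protein-coding genes, and these classes were not matched on level. All 4 POU, all 4 Fox and all 3 Irx valleys were higher in old cells, by 0.0101 to 0.625 points, against 40.6% of all valleys. By contrast, 5 of 6 immediate early gene valleys were lower. So were both of the Polycomb and Trithorax list, at Kdm6b and Jarid2, by up to 0.672 points. Other lineage families were mixed: the zinc finger genes had 4 higher and 6 lower, the Sox genes 2 and 3, the Dlx genes 1 and 1, the Pax genes 2 and 1, the Nkx genes 4 and 1 and the other homeobox genes 10 and 7. The split was known from earlier work on the same levels, so it is a description; these are differences of a fraction of a point, and among the 11 lineage valleys of 10 kb or more the median was -0.0453.

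**Figure D4:**
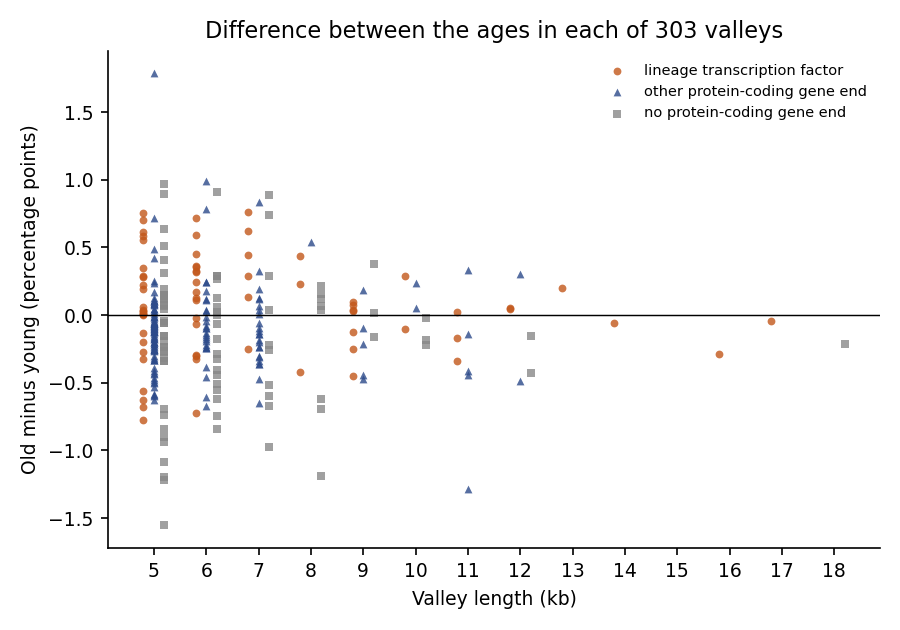
Difference between the ages (vertical axis, old minus young, percentage points) against length in kb (horizontal axis) for each of 303 valleys, with points of the 3 classes shifted sideways for clarity. Differences spread most among the valleys of 5 to 8 kb, from -1.55 to 1.79, and most orange points, the lineage transcription factors, lie above 0 (44 of 69).

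The valley with the largest difference towards old cells lay across Mamstr and Rasip1 (chr7:45639001-45644000). Its level was 8.32% in young cells and 10.1% in old cells, a difference of 1.79 points with an SD of 1.61 over its 5 windows, 4 of which were higher in old cells. The window with the Mamstr start and upstream sequence was at 9.27% and 13.1%. Bdnf, a neurotrophin, was next, at 6.75% in young cells and 7.75% in old cells (SD 1.60 over 6 windows). The valley 61.9 kb from Mef2c, a muscle and neural transcription factor, was at 5.02% and 5.98%, and here all 5 windows were higher in old cells (difference 0.966, SD 0.602). The valleys 8.82 kb from Ttll6, a tubulin glutamylase, and 30.9 kb from Mef2d differed by 0.908 and 0.895 points, each less than the SD over its windows (2.93 and 2.01). With 1 window of another kind allowed inside, the difference near Mef2d was 0.305.

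At the other extreme, a 5-kb valley 6.19 kb from Irf2bpl (chr12:86891001-86896000) was at 8.48% in young cells and 6.93% in old cells. Its difference of -1.55 points exceeded the SD over its windows of 0.540, and none of its 5 windows was higher in old cells. The 11-kb valley at the predicted gene Gm21188 was at 12.9% in young cells and 11.6% in old cells, and it had the highest young level of the 303. Its difference was -0.624 points for the valley as called from young levels alone. The valleys inside Zbtb20 and Mbnl2, a zinc finger repressor and a splicing regulator, were poor in CpGs, with 90 and 119 positions, and differed by -1.22 and -1.20 points. For Zbtb20 the difference was -0.548 at a threshold of 20% and -0.691 with windows moved by 500 bp. The valley inside Aopep, an aminopeptidase gene, was at 11.3% in young cells and 10.1% in old cells. In these last 4 valleys the difference was smaller than the SD over windows (2.14 at Gm21188, 1.93 at Zbtb20, 1.78 at Mbnl2 and 3.10 at Aopep).

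By the authors' own test at single positions, valleys held few calls. At their FDR of 0.05, 9 of 152683 valley positions passed, or 0.00589%, against 0.00695% in shorter runs and 0.233% of all positions. Of the 9, 6 were higher in old cells (background 0.13%) and 3 lower (background 0.103%). At an unadjusted p-value under 0.05, 198 positions passed (0.130%, 80 higher and 118 lower) against 0.180% in shorter runs and a background of 2.57%. Among all positions under 15%, 0.225% passed that p-value and 0.0176% the FDR. Calls were thus rare at low levels in general, and how well the test detects differences at such levels was not tested. The p-values are the authors', from the same table whose levels chose the valleys.

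All 9 positions carried the most common dispersion of at least one age (0.0438 in young, 0.0434 in old), and no CpG passed on both strands. They lay in 6 valleys, named here after their values were seen. The valley of Nfia, a nuclear factor of glia, had the largest difference, with 63.99% in young cells and 19.42% in old cells, 131 bp from the border. In young and old cells respectively, the position in the Tbx5 valley was at 6.65% and 25.35%, and the one in Dmbx1 at 7.05% and 15.86%. The position in the Arhgef2 valley was at 10.53% and 3.36%, and the one near Hjv at 43.1% and 24.56%. The other 4 were at Myf5.

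No window of a valley was called. Each window was tested by doubling the median of its positions' p-values from the authors, which bounds the p of the window. After Benjamini-Hochberg adjustment over all windows, 0 of 1877 valley windows with at least 10 positions passed 0.05, and 0 had an unadjusted p under 0.05, the smallest being 0.0774. Over the genome 1 of 1201119 windows passed (8.33e-05%), so this procedure called almost nothing anywhere. With 5-kb windows 0 of 617 windows that touch a valley passed.

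Of the 198 positions with p under 0.05, 84 lay in 10 short stretches, taken as at least 4 such positions no more than 100 bp apart, and 114 lay outside any stretch. Since the p-values chose them, the levels are a description. The Spry1 stretch held the most positions, 21 over 252 bp inside the gene (chr3:37643575-37643826). It was at 18.9% in young cells and 6.48% in old cells, while the rest of the valley was at 4.23% and 4.46%. The smallest p there was 0.00126, and none passed the FDR. Thus the lower mean of the Spry1 valley in old cells lay in this stretch, and without it the difference was 0.233 points.

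The Myf5 stretch covered 8 positions over 74 bp (chr10:107488005-107488078), outside the gene on its upstream side. All 8 had the same levels, 14.98% in young cells and 39.38% in old cells, as smoothed values can, and 4 of them passed the FDR. The rest of the Myf5 valley was at 11.6% in young cells and 10.7% in old cells, a difference of -0.803 points in the opposite direction. The stretch at Heyl, within the gene, was at 26.2% in young cells and 14.1% in old cells over 7 positions, again opposite to the rest of its valley (6.20% and 7.08%). At Cbln1, a secreted synapse organiser, 11 positions were at 36.6% and 20.9%, also opposite to the rest (4.81% and 4.95%). At Irx4 10 positions were at 14.5% in young cells and 27.4% in old cells, and the rest went the same way (7.08% and 7.25%). Stretch and rest also shared their direction at Aopep, Hoxc10 and Bcl6 and in both stretches near Mef2c.

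Valleys called in each age alone had nearly the same extent. Young levels gave 320 valleys with 1994 kb, and old levels 318 with 2024 kb. Of the young valleys 285 (89.1%) overlapped an old one, and of the old valleys 284 (89.3%) a young one. Of 277 valleys that paired 1 to 1, 231 had equal length, 30 were longer in old cells and 16 shorter. The 35 found in young cells alone included Bdnf, Mamstr, Foxd3, Nog and Wnt1, and the 34 found in old cells alone included Myf5 and Msc, a basic helix-loop-helix repressor of muscle differentiation. Many crossed the threshold narrowly: the window that ended the Mamstr valley in old cells was at 15.1% and that of Bdnf at 16.6%, while En2, a homeobox factor, had one at 29.3%. At Myf5 a window at 15.5% in young cells and 14.1% in old cells decided the call. The valley in old cells had 5 kb and ended before the window with the upstream stretch, at 9.45% in young cells and 15.9% in old cells.

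Outside the borders, methylation climbed slowly. In the first kb it was 36.3% in young cells and 36.6% in old cells, at 4 to 5 kb 42.6% and 43.1%, and at 19 to 20 kb 58.8% and 59.2%. The surroundings of shorter runs were at 49.5% in the first kb in young cells and already at 68.5% in the second. Valleys therefore lay in broader hypomethylated neighbourhoods than shorter runs did, as a description of these levels. Old cells were higher in each of the 20 windows outside valleys, by 0.0258 to 0.546 points, and lower in 4 of the 5 windows inside. Weighted by position, the mean outside valleys was 0.289 points. The windows around shorter runs differed by 0.246 to 0.504 points, and all positions of chromosomes 1 to 19 by 0.470. With each valley weighted equally, old cells were higher in 18 of the 20 windows outside, the exceptions being 2 to 3 kb (-0.0554 points) and 8 to 9 kb (-0.0581), and lower in all 5 inside.

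**Figure D5:**
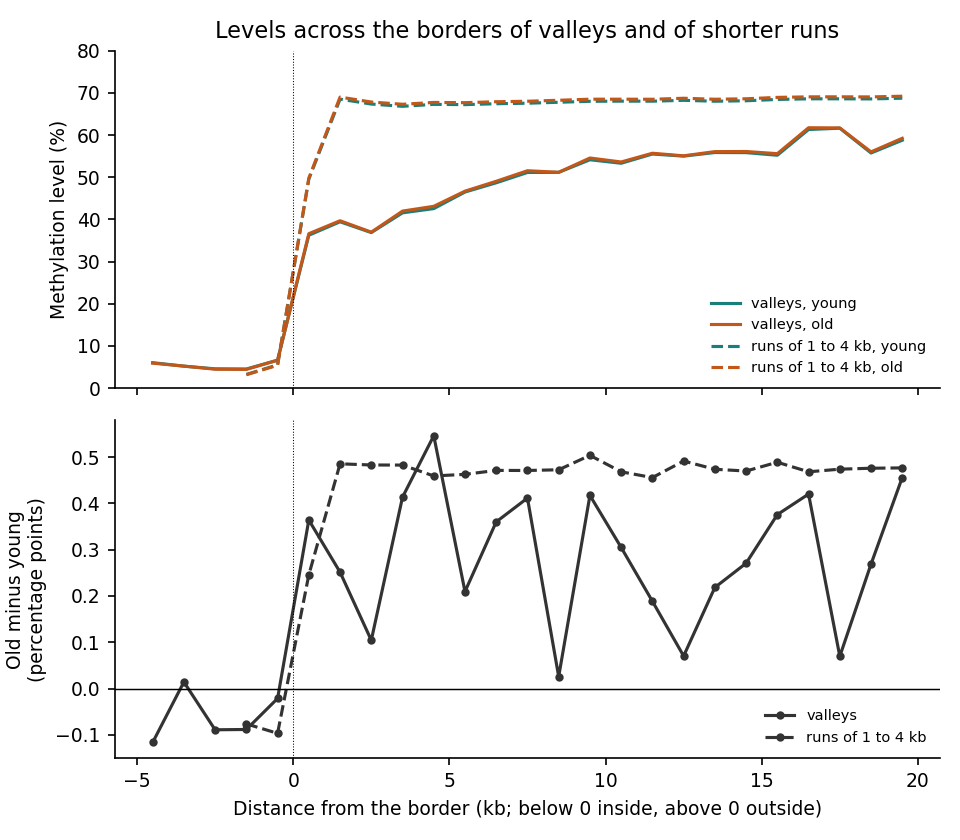
Mean level in percent (upper panel, vertical axis) and old minus young in percentage points (lower panel) against the distance in kb from the border, with inside below 0, for valleys (solid) and runs of 1 to 4 kb (dashed). Weighted by position, the difference is above 0 outside for both kinds and below 0 in most windows inside, and the level around valleys stays below that around shorter runs out to 20 kb.

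The authors' dispersion, a value between 0 and 1 given per position and age, was 0.0457 in young and 0.0453 in old cells within valleys. It was 0.0467 and 0.0464 in shorter runs, and 0.0488 and 0.0493 over all positions. Inside valleys it was thus slightly smaller in old cells, and over all positions slightly larger; how it is defined was not stated in these sources, and it was not tested.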

How the data were processed

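DNA methylation libraries of 4 young and 4 old mice were grouped by labelled age. The submitters' processing notes list Bismark, edgeR and Trim Galore and the builds GRCm38 and mm10; versions and roles are not given there. The authors deposited 1 table of 2 age levels: per the file headers, mu is a methylation level (a fraction, printed as percent) and phi a dispersion score for each age, with the authors' p-value and FDR at each position. Levels are equal over many neighbours, so they were smoothed, and nearby positions are not independent. Counts and single mice are not in it, so no test over mice could be run.

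Positions count from 0 in the table, since the C of 96.8% of RefSeq promoter CpGs was listed 1 below its coordinate and the G of 96.4% likewise, whereas a count from 1 would match 10.1% of the Gs; coordinates printed here count from 1. Levels were averaged over positions with equal weight. Genes and promoters came from RefSeq tables of GRCm38.p6. Of 247 genes with an end in a valley, 179 were in the promoter table. The gene table gives no exons, so exons and introns were not analysed here.

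The named valleys were the longest 10 (11 are named, as the last lengths tie), the 5 highest and 5 lowest differences, valleys with a called window or a CpG past the FDR on both strands (none), and 23 fixed genes with the Hox clusters; others were chosen after their values were seen. Members and lists were chosen with earlier results of these data known. Python 3.11.15, numpy 2.4.6 and pandas 2.3.3 were used, and valley finding and the window test were tested on simulated data. Values of some genes are left out of the text.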

Additional observations from a re-analysis of the deposited data

How the results depend on the processing

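No paired analysis was possible because the table holds 1 level per age and no value per mouse; for the same reason leaving out each mouse was not run. Depth per position is unknown. Alternatives for genes, single positions, extent, dispersion, lineage factors and named valleys were added after seeing the data.

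Against 303, the number of valleys was 147 with a threshold of 10%, 472 with 20%, 2417 with at least 3 windows, 26 with at least 10, and 505 with 1 window of another kind allowed inside. The genes with an end, 247, became 121, 391, 2142, 23 and 433 in the same order. The number past the FDR, 9, became 0 at 10%, 20 at 20%, 5 with at least 10 positions, 32 and 2 with at least 3 and 10 windows, 4 with borders moved by 500 bp, 5 with either age alone, 20 with a window allowed, and 0 both for CpGs past on both strands and after removal of positions with the modal dispersion. The cause was not tested beyond the change in members that each definition makes.

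The median difference stayed below 0 under every valley definition tried, from -0.121 to -0.0557, and was -0.115 under equal window weights. It turned to 0.0214 once the mean difference of all positions under 15% was subtracted. This takes a mean over positions from a median over valleys, which are unlike measures. The difference over all valley positions ranged from -0.139 to -0.0165. The median at lineage factors stayed above 0 except with at least 10 windows (-0.0453, 11 valleys). The share of lineage valleys higher in old cells was 63.8%, with 50% at the 20% threshold and 45.5% with at least 10 windows. The total extent was 1.5% larger in old cells, 0.684% at 10%, 2.51% at 20% and 0.356% with at least 6 positions. Among 253 values of 26 named valleys under these alternatives, 34, in 15 valleys, had the other sign or moved by over 1.5 times. The sign turned in 10, at 6 valleys: Lbx1 (up to 0.346), Myf5 (down to -1.33 with old levels alone), Tbx5 (0.207 with at least 10 positions or old levels alone), Hes1 (0.0201 with borders moved by 500 bp), Six3 (-0.00198 with a window allowed) and near Polg (0.109 at 20%). Each move was under the SD over the valley's windows, which is wide (up to 3.94 points) and so is a weak yardstick. A definition under which no valley overlapped a named one gave no value, so the named valleys had from 7 to 11 values each. With windows moved by 500 bp, no valley was left at Myf5 or at the valley near Irf2bpl.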

Other observations

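Chromosome X, which the rule leaves out, held 9 runs that would meet it in these male mice, each of 5 or 6 kb. They lay at Mid1ip1, Bcor, Stag2, Bcorl1, Sox3, Hcfc1, Pou3f4, Pcdh11x and Huwe1. Bcor and Bcorl1, corepressors of a Polycomb complex, were at 4.97% and 5.95% in young and 4.41% and 5.55% in old cells. Huwe1, a ubiquitin ligase, had the largest difference, with 5.96% in young cells and 5.18% in old cells. The homeobox factor Pou3f4 was at 8.01% in young cells and 8.31% in old cells and was the only one of the 9 higher in old cells. Sox3 was at 5.21% in both. No position within them reached the authors' FDR of 0.05.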
